A study of Arabidopsis thaliana with 12 samples.

Results

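The 4 genes described here code for organelle proteins of enzyme families that act on thiols, peroxides or reactive carbonyls: AT3G52960 (the peroxiredoxin PRXIIE), AT2G04700 (FTRB), NTRC (AT2G41680) and GLX2-1 (AT2G43430). They were chosen by name, with earlier results of these data known. The array's annotation had to pair their probe with exactly 1 gene. Each of the 4 genes has 1 such probe, out of 692 probes with 1 gene and 3439 probes in all. Transcript levels were measured in total RNA of wild-type Arabidopsis thaliana plants, ecotype Columbia 0. In the group called pStau, 6 arrays hold RNA of plants that spent 4 h in water and then 4 h with staurosporine, given in the labels as 25 mM at pH 5.5. The unit of that dose could not be checked and may be a slip in the label. In the group called H2O, 6 arrays hold RNA of plants that spent 8 h in water. Staurosporine inhibits many protein kinases. The tissue and the age of the plants are not given in the sources used here, and none of the 23 listed markers of leaf, root, vascular, guard or pollen cells has a probe with 1 gene, so the tissue could not be checked.

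Chloroplasts hold a thiol network that links light to metabolism. Ferredoxin reduced by photosystem I passes electrons to ferredoxin-thioredoxin reductase, which reduces thioredoxins, and these reduce disulfides in enzymes of the Calvin-Benson cycle and other pathways. NTRC does a similar job with NADPH, since it joins a thioredoxin reductase and a thioredoxin in 1 protein, and it is a main electron donor of the 2-Cys peroxiredoxins, whose name refers to their catalytic cysteines. PRXIIE is a plastid peroxiredoxin of type II, which reduces hydrogen peroxide and organic peroxides and takes its own electrons mainly from glutathione and glutaredoxin. Glyoxalases remove methylglyoxal, a reactive by-product of sugar breakdown, with glutathione as a cofactor. GLX2-1 is placed in the glyoxalase II family, and its protein is assigned to mitochondria. Enzymes typical of that family hydrolyse the glutathione thioester that glyoxalase I makes. Whether GLX2-1 itself has this activity cannot be read from transcript levels.

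The values are intensities from 0 to 100 as deposited, with no stated unit, and were taken as linear. The arrays had medians of 0.169 to 0.392 in pStau and 0.405 to 0.485 in H2O, and 12.3% to 17.3% of values at exactly 0 in pStau against 11.5% to 13.1% in H2O. The 4 pStau arrays numbered 3 to 6 had the lowest medians. Because of these differences the arrays were quantile normalized, and a level below is such a normalized intensity unless it is called deposited. Consecutively numbered arrays of a group (1 and 2, 3 and 4, 5 and 6) were more alike than other arrays of the group, with deviations from the group mean that correlated at r = 0.16 to 0.72 across probes, against -0.52 to -0.24 for other arrays. Whether each array stands for separate plants is not in the labels. The p-values therefore reflect the spread between arrays, which may be technical. In RNA from many cells together, fewer cells of a type and less RNA per cell cannot be told apart.

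The question put to these arrays is how transcript levels stand after 4 h with the kinase inhibitor, relative to water alone. Transcripts of PRXIIE and of GLX2-1 fell, and those of FTRB and NTRC did not pass the test. This made 2 of 4 genes past an adjusted p of 0.05 in limma, both lower in pStau. Of all 3256 tested probes 35.3% passed and 18.8% were lower, so with 4 genes this count does not set them apart from the array. The median log2 change of the 4 genes was -0.61, midway between PRXIIE (-1.24) and NTRC (0.02), and that of all tested probes was -0.0041. Of the 652 tested probes with 1 gene, 240 passed, 145 of them lower, and their median change was -0.067. Quantile normalization holds the median of all probes near 0, so it does not show that the array as a whole stayed level. On the deposited values it was -0.61. Because the 4 genes were chosen with earlier results known, their p-values, count and median are not independent evidence.

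**Figure D1:**
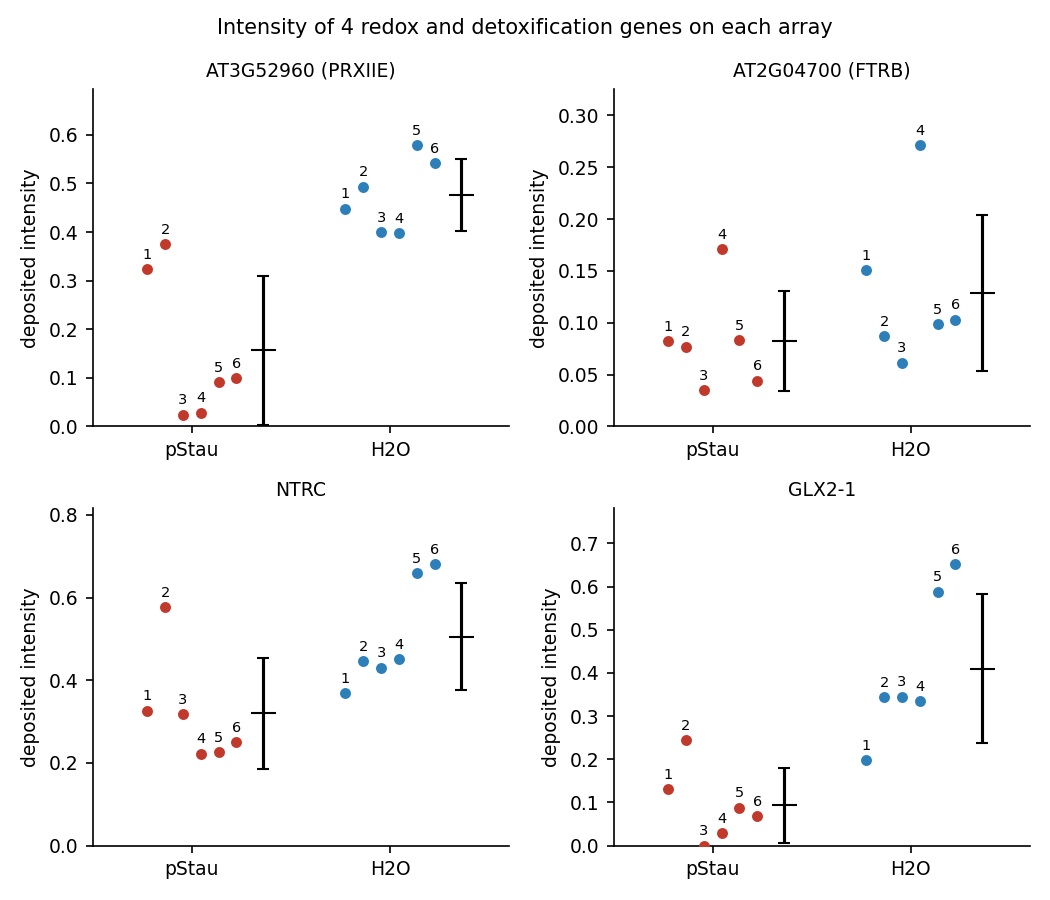
Deposited intensity (vertical axis, starting at 0, its own scale in each panel) of the 4 genes on each array, with pStau in red and H2O in blue. Numbers beside points are array numbers, and bars give mean ± SD over 6 arrays. The AT3G52960 values of pStau all lie below those of H2O, and pStau arrays 3 and 4 are the lowest.

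PRXIIE, the peroxide-reducing enzyme of the set, had deposited intensities of 0.0238 at lowest, 0.0948 at the median and 0.375 at highest over the 6 pStau arrays. In H2O they were 0.397 at lowest, 0.471 at the median and 0.579 at highest. The 2 groups therefore did not overlap, which held for 20.2% of tested probes in this direction on the deposited scale and for 9.28% after normalization. The pStau arrays fell into a pair near the H2O range, arrays 1 and 2 with 0.324 and 0.375, and 4 arrays well below it. Arrays 3 and 4 had 0.0238 and 0.0280, and arrays 5 and 6 had 0.0909 and 0.0987.

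After normalization PRXIIE averaged 0.191 ± 0.112 in pStau and 0.384 ± 0.045 in H2O (SD, n = 6 each). The normalized log2 levels differed by -1.24 ± 0.37 (SE, 95% interval -2.05 to -0.42, limma adjusted p = 0.0235), a 2.36-fold lower level in pStau. The exact two-sided permutation test of the difference gave p = 0.0022, the smallest that 924 splits of the arrays allow. In normalized values the gap between the groups was thin, since the highest pStau array had 0.344 and the lowest H2O array 0.345. By rank, the probe lay between the 20.9 and 48.1 percentile of its array in pStau and between the 48.2 and 58.5 percentile in H2O. Rank within an array does not move with the scaling of whole arrays.

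The size of the PRXIIE difference varied with the array number. Same-numbered arrays differed by -0.21 and -0.16 on the log2 scale for numbers 1 and 2, by -2.28 and -2.15 for numbers 3 and 4, and by -1.42 and -1.22 for numbers 5 and 6. All 6 differences were negative, as they were for 21.7% of tested probes. The call ended without arrays 3 and 4 of both groups (log2 change -0.73, limma adjusted p = 0.0848) and without arrays 5 and 6 (-1.24, adjusted p = 0.189). It held without arrays 1 and 2 (-1.77, adjusted p = 0.00460), the numbers with the smallest differences. Whether the change differs between array numbers was not tested, and pStau arrays 3 to 6 are also those with low medians and many zeros, whose part in the result was not tested.

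GLX2-1, of the glyoxalase II family, showed the lowest values on much the same arrays. Its deposited intensities in pStau were 0 at lowest, 0.0782 at the median and 0.245 at highest, and in H2O 0.198 at lowest, 0.344 at the median and 0.651 at highest. The groups overlapped through pStau array 2, whose 0.245 exceeded the 0.198 of H2O array 1. pStau array 3 was listed at 0 and array 4 had 0.0283. The H2O arrays themselves were uneven, with 0.588 and 0.651 on arrays 5 and 6 and 0.335 to 0.345 on arrays 2 to 4.

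Normalized GLX2-1 levels averaged 0.124 ± 0.072 in pStau and 0.330 ± 0.138 in H2O (SD, n = 6 each). The log2 change was -1.66 ± 0.57 (SE, 95% interval -2.92 to -0.40, limma adjusted p = 0.0425). This puts the pStau level at 0.316 of the H2O level, with a 95% interval of 0.132 to 0.758, and an exact two-sided permutation test gave p = 0.00649. The value at 0 was set to the floor of the scale (0.0167), so part of the size rests on that floor: without pStau array 3 the log2 change was -1.14 (limma adjusted p = 0.0306). Same-numbered arrays differed by -0.30, -0.19, -4.17, -1.84, -1.50 and -1.96 for numbers 1 to 6. The direction was shared by all 6 numbers, as it was for 21.7% of tested probes, and the size was not shared.

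The GLX2-1 call was close to the threshold. It ended when pStau array 1, 4 or 6 or H2O array 2, 3, 4, 5 or 6 was left out, with limma adjusted p of 0.0509 to 0.0936 and log2 changes of -1.74 to -1.57. It ended when consecutive arrays formed a random block (limma adjusted p = 0.241) or were averaged (adjusted p = 0.205). The same held without arrays 3 and 4 of both groups (-0.97, adjusted p = 0.142) and without arrays 5 and 6 (-1.79, adjusted p = 0.210). With the same random block PRXIIE had an adjusted p of 0.0498.

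**Figure D2:**
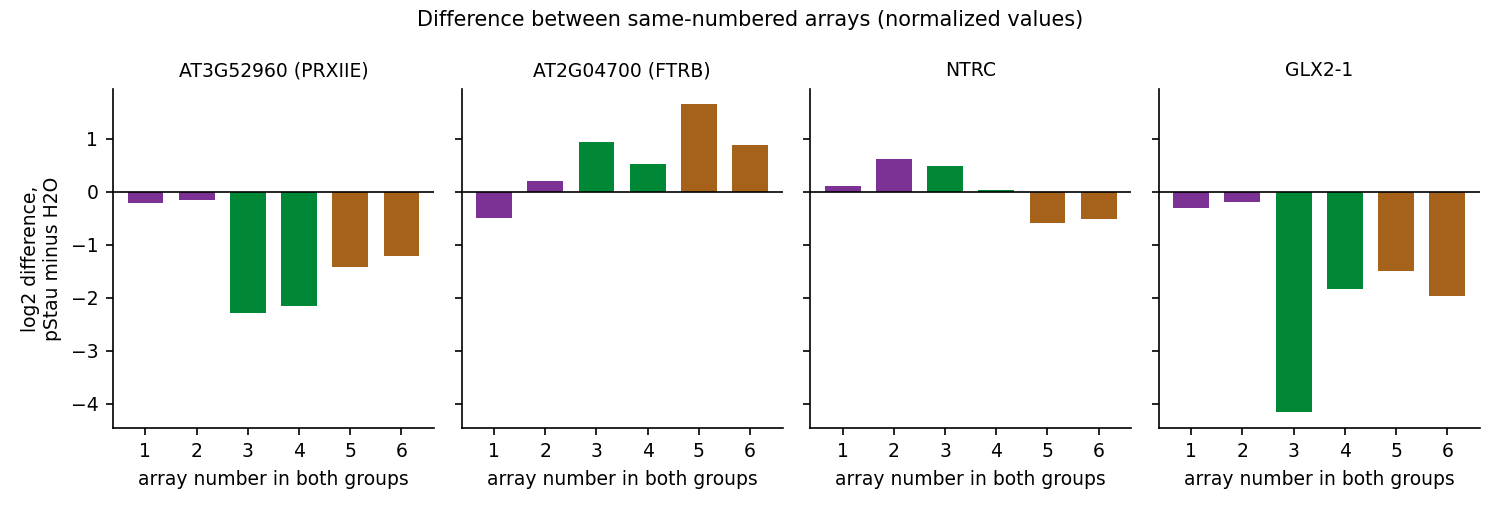
Difference in normalized log2 level between the pStau and the H2O array of the same number (vertical axis) for numbers 1 to 6 (horizontal axis), coloured by consecutive numbers. AT3G52960 and GLX2-1 are below 0 at all 6 numbers, with differences of -0.30 to -0.16 at numbers 1 and 2, and NTRC and AT2G04700 lie on both sides of 0.

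FTRB (AT2G04700) is the catalytic subunit of ferredoxin-thioredoxin reductase, the entry point of electrons from ferredoxin into the thioredoxin network. Deposited intensities were 0.0349 at lowest, 0.0794 at the median and 0.171 at highest in pStau, and 0.0616 at lowest, 0.101 at the median and 0.271 at highest in H2O. The groups overlapped widely. Array 4 was the highest in both groups, with 0.171 in pStau and 0.271 in H2O. The probe is dim: its mean H2O level lies at the 13.0 percentile of tested probes, so it was left out when the dimmest 25% of probes were removed.

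The normalized log2 change of FTRB was 0.62 ± 0.47 (SE, 95% interval -0.41 to 1.64, limma adjusted p = 0.340), with an exact permutation p of 0.249 (two-sided, n = 6 each). Its sign depended on the scaling: the change was -0.67 on the deposited values and -0.68 after scaling arrays to equal totals, where the median of all probes was -0.61 and -0.63, and 0.06 in median-centred arrays. The interval spans a level in pStau from 0.751 to 3.12 of that in H2O. Normalized levels were higher in pStau at numbers 2 to 6 and lower at number 1, with differences from -0.49 to 1.65.

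NTRC, the NADPH-dependent route into the same network, had the smallest normalized log2 change of the 4 genes, while on the deposited scale that of FTRB was smaller (-0.67, against -0.71 for NTRC). Its deposited intensities were 0.222 at lowest, 0.284 at the median and 0.577 at highest in pStau, against 0.368 at lowest, 0.449 at the median and 0.680 at highest in H2O. Those groups overlapped, and pStau array 2 was above 4 of the H2O arrays. Normalized levels averaged 0.418 ± 0.094 in pStau and 0.414 ± 0.106 in H2O (SD, n = 6 each), a log2 change of 0.02 ± 0.20 (SE, limma adjusted p = 0.954).

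The 95% interval of the NTRC change, -0.41 to 0.45, bounds the level in pStau between 0.753 and 1.37 of that in H2O on the normalized scale. On the deposited scale NTRC passed as lower in pStau (log2 change -0.71, limma adjusted p = 0.0366), and likewise after scaling to equal totals (-0.72, adjusted p = 0.0322). Measured from the median of all probes, these changes were -0.095 and -0.094, with 41.4% and 44.9% of tested probes called lower. Same-numbered arrays differed by 0.11, 0.62, 0.48 and 0.04 for numbers 1 to 4 and by -0.59 and -0.52 for numbers 5 and 6.

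**Figure D3:**
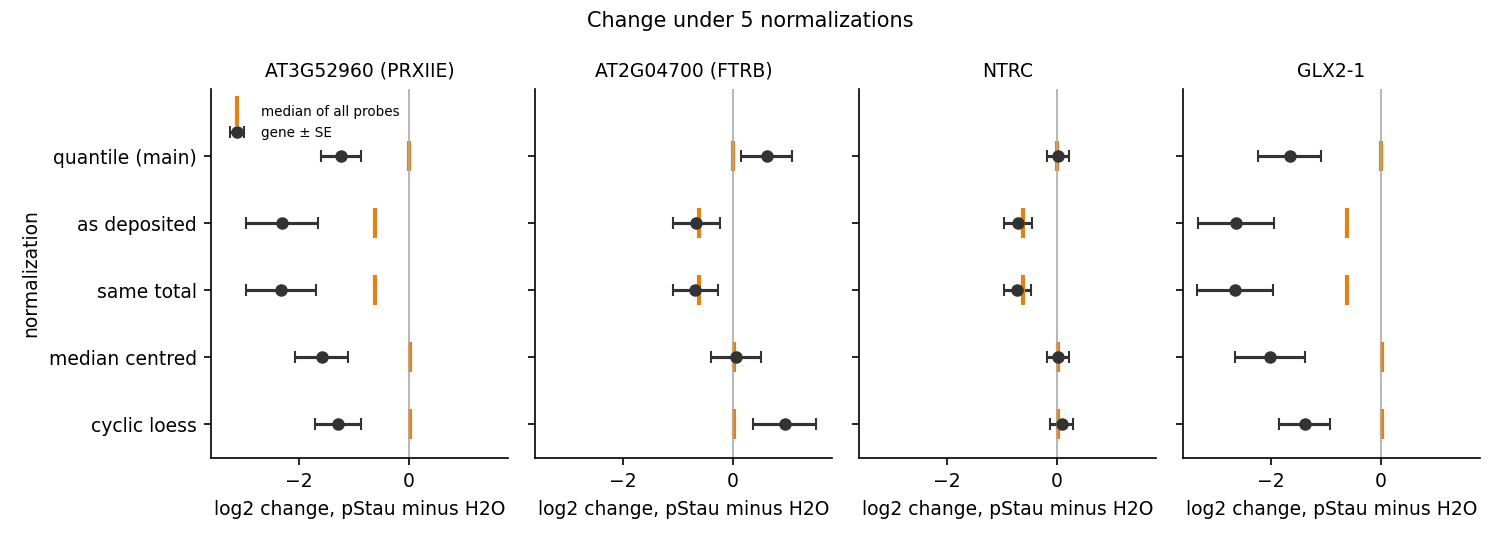
Log2 change of the 4 genes, pStau minus H2O (horizontal axis), under 5 normalizations, as points with SE. The orange mark is the median change of all tested probes in that normalization, near 0 except on the deposited scale and after scaling to equal totals, where it is -0.61 and -0.63. AT3G52960 and GLX2-1 lie below the mark in all 5, and NTRC and AT2G04700 lie close to it or, for AT2G04700, above it.

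The 2 genes that fell kept their direction and their calls in all 5 normalizations of that plot. PRXIIE was at -2.31 on the deposited values, which is -1.70 relative to the median of all probes, at -1.59 in median-centred arrays and at -1.29 with cyclic loess. GLX2-1 was at -2.64 on the deposited values, -2.03 relative to that median, at -2.02 in median-centred arrays and at -1.39 with cyclic loess.

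Since a call for some genes and none for others does not show that they differ, the log2 ratio of each pair of genes on the same array was compared between the groups. Without a value at the floor, such a ratio of deposited values does not move with the scaling of the whole array. Ratios with GLX2-1 do move somewhat, since its value at 0 on pStau array 3 was set to a fixed floor. Of 6 pairs, 2 passed in an exact two-sided permutation test with Benjamini-Hochberg adjustment over the 6 pairs. The genes had been chosen with their changes known, so these p-values are not independent evidence.

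NTRC relative to GLX2-1 was higher in pStau by a log2 value of 1.68 (exact permutation p = 0.0022, adjusted p = 0.0130). Set to a mean of 0 in H2O, that ratio was between 0.70 and 4.59 in pStau and between -0.32 and 0.51 in H2O, so the groups did not overlap. NTRC alone changed by 0.02 and GLX2-1 by -1.66, so the difference of this ratio mostly restates that of GLX2-1. PRXIIE relative to NTRC was lower in pStau by a log2 difference of -1.26 (exact permutation p = 0.0108, adjusted p = 0.0325), with 5 of 6 pStau arrays below all H2O arrays. The pStau values of this ratio ran from -2.81 to 0.07 around the H2O mean and the H2O values from -0.32 to 0.39. Its highest pStau array thus lay within the H2O range. For neither ratio was the share of other probe pairs with such separation counted. From the deposited values, with no normalization, the differences of these ratios were 1.94 (2.03 in median-centred arrays, exact permutation adjusted p = 0.0130 in both) and -1.61 (adjusted p = 0.0325).

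FTRB relative to GLX2-1 was higher in pStau by 2.28 (exact permutation adjusted p = 0.0519), and PRXIIE relative to FTRB differed by -1.85 (adjusted p = 0.0552). Neither passed, with 3 pStau arrays beyond all H2O arrays in each. The ratio of PRXIIE to GLX2-1 differed by 0.42 (exact permutation adjusted p = 0.331) and that of FTRB to NTRC by 0.59 (adjusted p = 0.331). The ratio of NTRC to GLX2-1 no longer passed without H2O array 5 or 6 (1.69 in both cases, exact permutation adjusted p = 0.0519). That of PRXIIE to NTRC no longer passed without H2O array 1, 2, 3, 5 or 6 (log2 differences of -1.35 to -1.19, exact permutation adjusted p of 0.0584 to 0.0844). With same-numbered arrays paired, an exact sign-flip test over 64 sign sets gave 0 of 6 pairs after adjustment. There 2 pairs, PRXIIE over NTRC and NTRC over GLX2-1, had an unadjusted p of 0.0312, the smallest it can give, and an adjusted p of 0.0938. With only 2 pairs at that smallest p, neither could pass after adjustment, so this test cannot decide whether they differ.

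**Figure D4:**
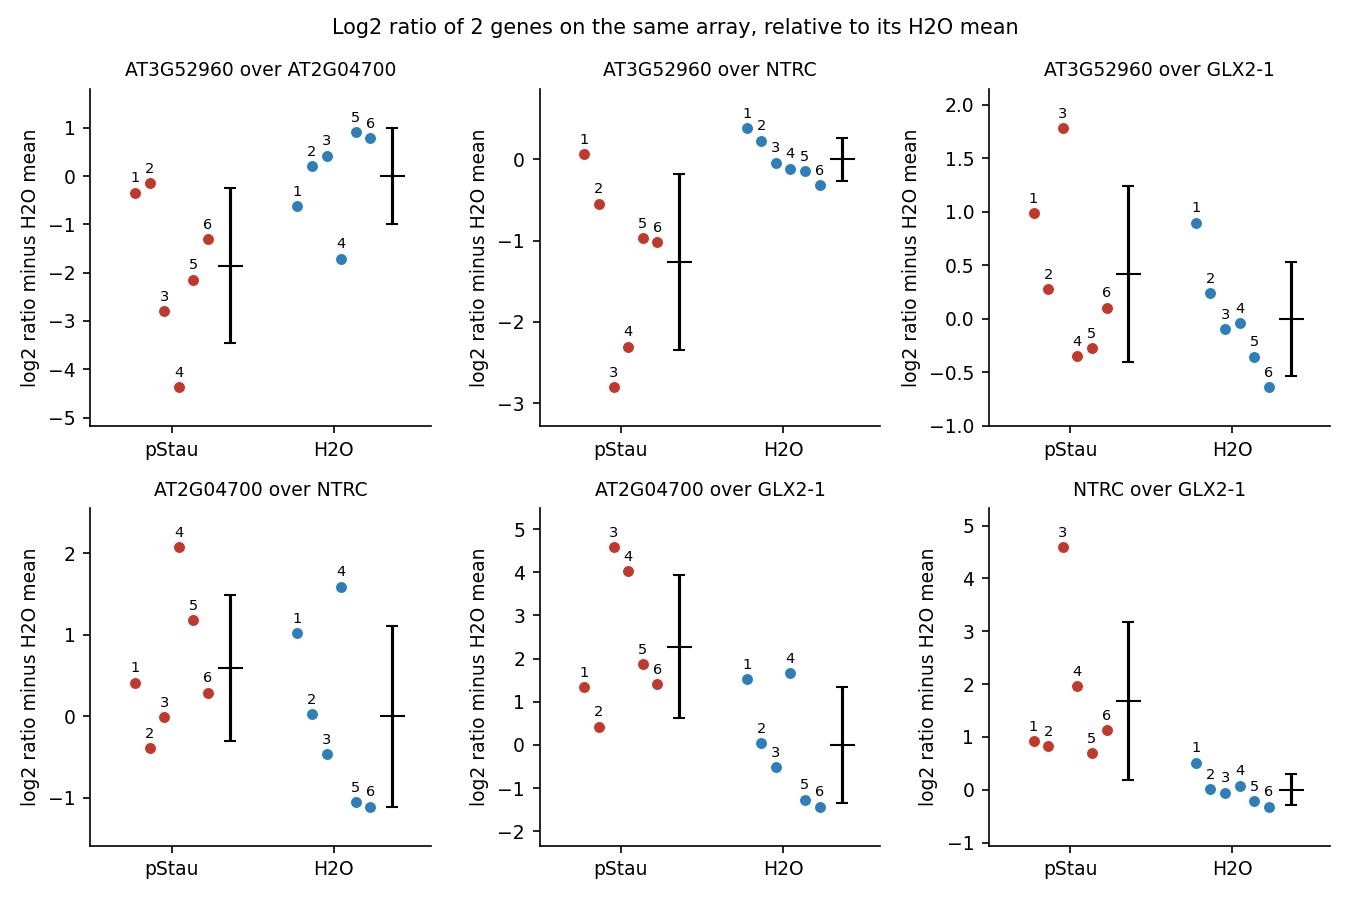
Log2 ratio of each pair of genes on the same array, from normalized values and set to a mean of 0 in H2O (vertical axis, its own scale in each panel), for pStau (red) and H2O (blue). Numbers are array numbers and bars give mean ± SD over 6 arrays. Of these 6 pairs, NTRC over GLX2-1 is the only 1 whose groups do not overlap, with pStau at 0.70 to 4.59 and H2O at -0.32 to 0.51. How often ratios of other probes separate was not counted.

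Beside the 4 genes, lists of peroxiredoxins, the ferredoxin-thioredoxin system, thioredoxins, glutaredoxins, ascorbate-glutathione enzymes, superoxide dismutases, catalases, other peroxidases, glyoxalases, alternative oxidases and thioredoxin-regulated plastid enzymes held 125 genes. Of these, 9 had a probe with 1 gene and 8 could be tested, the 4 genes above included. No thioredoxin, glutaredoxin, ascorbate peroxidase, superoxide dismutase or catalase was among them. Of the 4 other tested genes, 1 fell, 0 rose and 3 did not pass, beside 35.3% of all tested probes called and 18.8% called lower, so this count too is near that of the array. The median log2 change of these 4 genes was -0.53, that of all tested probes -0.0041 and that of tested probes with 1 gene -0.067. The value for all probes is again held near 0 by the normalization. The lists too were chosen with earlier results of these data known.

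SRX, the sulfiredoxin that repairs overoxidised 2-Cys peroxiredoxins, had deposited intensities of 0 at lowest, 0.0465 at the median and 0.304 at highest in pStau. In H2O its values were 0.323 at lowest, 0.336 at the median and 0.378 at highest. As deposited the groups did not overlap, which held for 20.2% of tested probes in this direction. After normalization 5 of 6 pStau arrays lay below all H2O arrays. As for PRXIIE, pStau arrays 1 and 2 were close to H2O and arrays 3 to 6 far below. Its normalized log2 change was -1.36 ± 0.56 (SE, n = 6 each, limma adjusted p = 0.0816), which did not pass. On the deposited scale (-2.46, adjusted p = 0.0182) and with a floor at the 5th percentile (-1.03, adjusted p = 0.0300) SRX passed. Its value at 0, on pStau array 6, was set to the floor, and without that array the change was -0.83 (limma adjusted p = 0.0523). With consecutive arrays as a random block or averaged, the limma adjusted p was 0.319 and 0.272.

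Among thioredoxin-regulated plastid enzymes, CHLM, the magnesium protoporphyrin IX methyltransferase of chlorophyll synthesis, had deposited intensities of 0.103 at lowest, 0.154 at the median and 0.387 at highest in pStau. In H2O they were 0.459 at lowest, 0.596 at the median and 0.638 at highest. The normalized log2 level of CHLM fell by 0.74 in pStau (limma adjusted p = 0.00406, n = 6 each), and its adjusted p became 0.0567 with that random block and 0.0616 without arrays 5 and 6 of both groups. PRK, the phosphoribulokinase of the Calvin-Benson cycle, changed by 0.19 ± 0.17 and AT5G58330, the plastid NADP-malate dehydrogenase, by -0.32 ± 0.34 (SE), and neither passed (limma adjusted p = 0.421 and 0.493). AT5G58330 passed on the deposited scale (-1.35, limma adjusted p = 0.0339), -0.74 relative to the median of all probes. SBPASE, the sedoheptulose-bisphosphatase of the same cycle, was listed at 0 on all 12 arrays and was not tested.

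**Figure D5:**
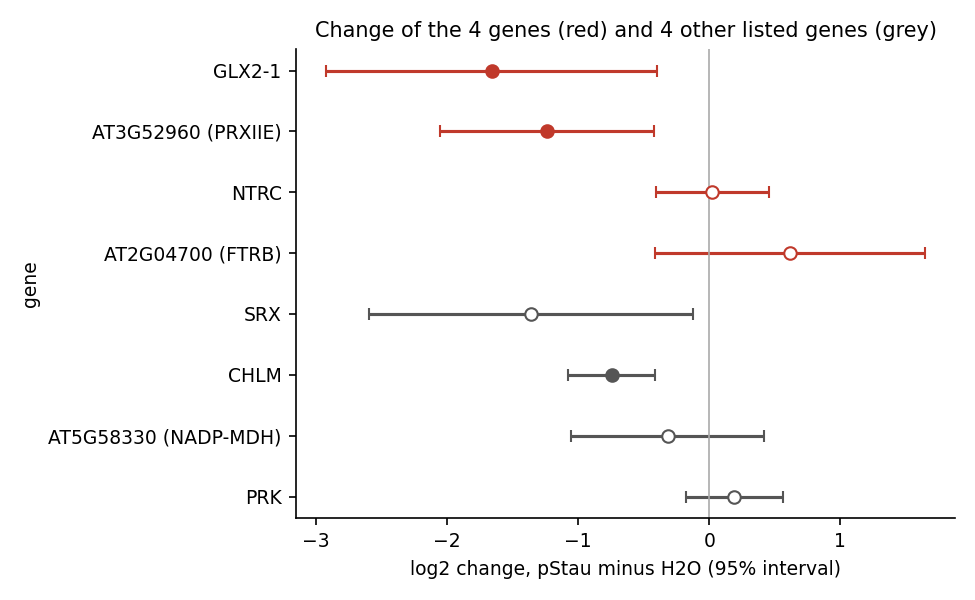
Normalized log2 change, pStau minus H2O (horizontal axis), with its 95% interval for the 4 genes (red) and the 4 other tested genes of the redox lists (grey). Filled points passed a limma adjusted p of 0.05. GLX2-1, AT3G52960 and CHLM passed, all lower in pStau.

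The genes with 1 probe whose log2 levels followed each of the 4 most closely over the 12 arrays were ranked by Pearson's r, as a description. The 12 points share their arrays, and consecutively numbered arrays are alike, so they are not 12 independent points. AT3G11150 (r = 0.98), AT2G37000 (0.96) and AT5G63460 (0.96) lay nearest to PRXIIE, with log2 changes of -0.75, -0.54 and -0.79, of which the last did not pass in limma (adjusted p = 0.0614). AT5G03900 (0.93), AT5G53080 (0.92) and AT5G10920, argininosuccinate lyase (0.90), lay nearest to GLX2-1, with log2 changes of -1.01, -0.32 and -0.63, of which that of AT5G53080 did not pass (limma adjusted p = 0.143). For FTRB they were SIS (0.83), AT5G47890, a subunit of mitochondrial complex I (0.82), and TPP2, tripeptidyl peptidase II (0.76). The nearest to NTRC were AT4G02800 (0.71), AT2G37510 (0.69) and AT1G11730 (0.69). Within groups, after the group means were taken out, r stayed at 0.93 to 0.96 for the genes nearest to PRXIIE and at 0.70 to 0.77 for those nearest to NTRC. All were the top 3 of 529 or 530 candidates ranked on these same arrays, so these values are not a separate check.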

How the data were processed

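The deposited values are array intensity values for 3439 probes on 12 arrays, in 1 table. Their unit, background correction, dyes and scanner are not given in the sources used here, so scale, centring and scaling by the authors stay unknown, and the number of arrays limits the precision. The highest value was 100, reached on 10 arrays. Gene names come from the platform annotation, which may be outdated, and were brought up to date with the TAIR10.1 gene table of RefSeq, from which no coordinates were taken: 692 probes had 1 gene (690 matched, 2 kept the annotation's name), 870 several and 1877 none. The 12 probes that hold a listed gene together with others were not used.

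Array medians differed 2.87-fold, over the 10% allowed for using the table as deposited. Positive values were therefore quantile normalized, the 1st percentile of the result (0.0167) served as a floor for lower values and zeros, and values were converted to log2. Probes with no positive value on any array, 183 in all, were dropped. The groups, taken from the titles, were compared over 3256 probes with lmFit and eBayes in limma 3.58.1 (R 4.3.3) by a two-sided test with no block, and p-values were adjusted by Benjamini-Hochberg over these probes, with 0.05 as the threshold. The fit was tested on data simulated with independent noise on each array. Such data lack the likeness of consecutive arrays, so that check cannot show whether the p-values hold under it. Single values were also compared with exact permutation tests over 924 splits. Alternative scalings used 1 floor for all arrays. Figures were drawn with matplotlib 3.10.9 (Python 3.11.15).

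The replicate numbers in the titles were taken to pair the arrays: deviations from the group mean correlated between same-numbered arrays with r of 0.22 to 0.50 in all 6 numbers, over the minimum of 0.1. Named genes are the 4 members, every listed redox gene with a probe of its own and the 3 genes nearest to each member. The members and lists were chosen with earlier results of these data known.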

Additional observations from a re-analysis of the deposited data

Results flagged for a closer look

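AT5G47890, named above among the genes nearest to AT2G04700, stood at -1.59 (normalized log2 level) on array 4 of H2O, while the next highest array of that group had -2.10. That gap is 0.667 of the group's range, more than the 95% limit of Dixon's test for 6 arrays. AT2G04700 was also highest on array 4 in H2O. Since AT5G47890 was picked because it followed AT2G04700 on these same arrays, that likeness is not a separate check. In all, 40 groups of arrays of 20 genes were checked, and chance flags about 1 in 20 groups.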

How the results depend on the processing

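Each of the 4 genes was tried under up to 30 alternatives, 12 of them leaving out a single array. The log2 change of AT3G52960 kept its sign in all 30 and its call in 26. Its call ended with consecutive arrays averaged (-1.24, limma adjusted p = 0.217), at an adjusted p under 0.01 (-1.24) and without arrays 3 and 4 (-0.73) or 5 and 6 (-1.24) of both groups. GLX2-1 kept its sign in all 30 and its call in 16. It ended without variance moderation (adjusted p = 0.0594), with consecutive arrays as a random block or averaged (adjusted p = 0.241 and 0.205) and at an adjusted p under 0.01 (-1.66 in these 4), without arrays 3 and 4 (-0.97) or 5 and 6 (-1.79), and without any 1 of 8 single arrays. Leaving out single arrays gave log2 changes of -1.45 to -0.99 for AT3G52960 and -1.89 to -1.14 for GLX2-1, 0.31 to 0.93 for AT2G04700 and -0.085 to 0.11 for NTRC. NTRC turned to -0.71 on the deposited scale and -0.72 after scaling to equal totals, both called. With the replicate block 1279 probes passed, AT3G52960 had an adjusted p of 0.0319 and GLX2-1 of 0.0496, and no call of the 4 genes changed. In the sign-flip test with same-numbered arrays paired, 0 of 6 gene ratios passed. Both ratios called in the main test had its smallest possible p there, which could not pass after adjustment, so that loss is not informative.

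Over all probes, 1148 passed. With consecutive arrays in a random block it was 524, 3 with them averaged (876 at an unadjusted p under 0.05), 584 at an adjusted p under 0.01, and 483 and 506 without arrays 3 and 4 or 5 and 6. It lay between 969 and 1248 without single arrays. The split of 536 higher and 612 lower became 205 and 1349 on the deposited scale, 207 and 1463 after scaling to equal totals and 820 and 623 in median-centred arrays. Of the 4 other listed genes, 1 passed in the main setting. The count was 3 on the deposited scale and after scaling to equal totals. It was 2 in median-centred arrays, with a floor at the 5th percentile, a pseudocount or without arrays 1 and 2. In limma it was 0 with consecutive arrays averaged or in a random block and without arrays 5 and 6 (1 at an unadjusted p under 0.05 in each), and 1 or 2 without single arrays. Of the 6 gene ratios, 2 passed, 4 with cyclic loess and 0 to 4 without single arrays. The cause of these changes was not tested.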
